A study of Mus musculus with 15 samples.

Results

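Ankrd1, Xirp1, Xirp2, Flnc, Lmod2 and Csrp3 encode proteins of the Z-disc, the intercalated disc and the thin filament that heart muscle cells are known to regulate under mechanical load. They were chosen by name, with earlier results of these data known. All 6 of 6 were found among 12391 genes with at least 1 transcript in both sets of files (those of Control and AngII, and those of AngII+QDG). The libraries came from total heart RNA of male C57BL/6 mice after removal of rRNA, 5 per group. In the AngII+QDG group mice received both angiotensin II (AngII), the pressor peptide of the renin-angiotensin system, and QDG, which the labels give only as this abbreviation. The AngII group received AngII without QDG, and the Control group neither, as far as the labels say. The sources used here give no dose, duration or age. The labels name each library as a separate sample, and p-values measure the spread between these samples.

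Cardiomyocytes sense load at the Z-disc, where thin filaments and titin are anchored, at the costamere, where the Z-disc is tied to the membrane, and at the intercalated disc, where cells join end to end. Ankrd1 (CARP) is an ankyrin repeat protein that binds the elastic region of titin and can also enter the nucleus, and its mRNA is a classical marker of cardiac overload. Csrp3 (muscle LIM protein) is a Z-disc protein whose loss in mice causes dilated cardiomyopathy. Xirp1 (Xin) and Xirp2 (Xin beta) are actin-binding repeat proteins of the intercalated disc, Flnc is the muscle filamin that crosslinks actin and gathers at damaged sarcomeres, and Lmod2 is a leiomodin that lengthens thin filaments at their pointed ends. Load itself was not measured in these data.

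In GRCm38, Ankrd1 (ENSMUSG00000024803) lies at chr19:36111961-36120099 on the minus strand, Csrp3 (ENSMUSG00000030470) at chr7:48830398-48848033 on the minus strand and Xirp1 (ENSMUSG00000079243) at chr9:120013755-120023598 on the minus strand. Xirp2 (ENSMUSG00000027022) lies at chr2:67446002-67526614, Flnc (ENSMUSG00000068699) at chr6:29433256-29461883 and Lmod2 (ENSMUSG00000029683) at chr6:24597762-24605414, all on the plus strand. The promoters of Ankrd1 and Xirp2 are shown because they hold matches to motifs read by the load-linked factors TEAD and MEF2. Both come from RefSeq (GRCm38.p6), read in the direction of the gene, and capitals mark the matches. The Ankrd1 stretch is chr19:36119911-36120094 and ends where the listed transcript begins. It lies inside the span of the annotated gene, which reaches 36120099. The Xirp2 stretch is chr2:67445752-67446001.
Ankrd1: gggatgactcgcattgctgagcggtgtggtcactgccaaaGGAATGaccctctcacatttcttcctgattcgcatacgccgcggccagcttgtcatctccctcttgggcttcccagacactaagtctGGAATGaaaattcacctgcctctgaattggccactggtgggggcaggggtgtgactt
Xirp2: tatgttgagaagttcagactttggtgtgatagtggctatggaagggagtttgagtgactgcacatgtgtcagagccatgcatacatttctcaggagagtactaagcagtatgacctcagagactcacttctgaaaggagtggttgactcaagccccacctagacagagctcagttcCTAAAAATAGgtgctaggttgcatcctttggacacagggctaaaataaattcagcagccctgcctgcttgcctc
Both capital runs of Ankrd1 are M-CAT matches (CATTCC on the opposite strand), with first bases at -210 and -123 from the RefSeq start. The run of Xirp2 at -74 matches the MEF2 site and reads as a match on both strands. Windows of 250 bases before the RefSeq start were searched on both strands for CATTCC, the CArG box bound by SRF, the MEF2 site, the GATA site AGATAA and the TATA box (TATAAA or TATATAA), in 5 of 6 members. Ankrd1 also held a GATA match at -47 and a TATA match at -27, inside the listed transcript, and 1 of the Flnc windows held an M-CAT match at -104. No match was found in the Lmod2 and Csrp3 windows. Of 32851 promoter windows of this length, 12.6% held M-CAT, 1.47% the CArG box, 0.508% the MEF2 site, 9.99% GATA and 13.8% TATA, and a match is a description of letters only.

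Flnc was listed as a pair of coding transcripts that differ by 1 exon, shown here because the libraries divided between them. Exon 31 of the 48 exons of ENSMUST00000065090 (chr6:29452799-29452897, plus strand, GENCODE M21) is 99 nt long and wholly coding, with 33 codons, and ENSMUST00000101617 joins its neighbours directly. Capitals mark the exon, with 18 nt of each neighbouring exon in lower case.
ENSMUST00000065090: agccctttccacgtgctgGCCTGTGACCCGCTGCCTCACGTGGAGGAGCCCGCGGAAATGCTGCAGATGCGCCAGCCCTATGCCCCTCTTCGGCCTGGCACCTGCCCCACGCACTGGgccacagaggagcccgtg
ENSMUST00000101617: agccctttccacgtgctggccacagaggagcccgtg

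The 15 libraries differed in more than single genes. If 1 step of the low FPKM values is 1 fragment, 1 FPKM on a transcript of 1000 nt stood for 51.6 to 78.3 fragments, depending on the library's depth, and the members drew from 2196 (Xirp1) to 140932 (Ankrd1) fragments per library. The log2 level of transcripts under 1000 nt minus that of transcripts of at least 3000 nt, called the short-transcript balance here, was 0.83 ± 0.10 in AngII+QDG, 0.87 ± 0.07 in AngII and 1.24 ± 0.19 in Control libraries (SD, n = 5 each), highest in Control 3 (1.46) and Control 5 (1.42). Transcripts listed at 0 made up 5.53% ± 0.768 of AngII+QDG, 5.94% ± 0.955 of AngII and 12.1% ± 5.19 of Control libraries, with 20.6% in Control 5. Summed over 8 of 8 cardiomyocyte markers the level was 28420 ± 6106 FPKM in AngII+QDG, 30410 ± 1350 in AngII and 31210 ± 3532 in Control hearts, and of 8 skeletal muscle markers only Myl1 was analysed here. Blood markers, 5 of 5 listed, summed to 5159 ± 2551 FPKM in AngII+QDG, 5367 ± 2630 in AngII and 7764 ± 3426 in Control hearts (SD, n = 5 each). Mean summed levels of fibroblast, endothelial, smooth muscle and atrial markers were higher in both AngII groups than in Control. Not every marker followed its list. Endothelial Tie1 averaged 17.3 FPKM in AngII+QDG, 22.4 in AngII and 28.7 in Control hearts, and smooth muscle Tagln 27.6, 32.2 and 33.9. Atrial Myl7 and Myl4 were lower in AngII (0.921 and 1.07 FPKM) than in Control (1.88 and 1.52). Fibroblast Tcf21 was lower in AngII+QDG (4.66) than in Control (4.96). The other listed markers of these types were higher in both AngII groups. Fibroblast markers (6 of 6 listed, mostly Dcn) summed to 288 ± 49.97 FPKM in AngII+QDG, 263 ± 58.3 in AngII and 218 ± 17.8 in Control hearts, and endothelial markers (4 of 4) to 112 ± 13.7 FPKM in AngII+QDG, 129 ± 18.7 in AngII and 100.2 ± 25.3 in Control hearts. Smooth muscle markers (4 of 5) summed to 97.5 ± 17.4 FPKM in AngII+QDG, 116 ± 25.96 in AngII and 90.3 ± 17.9 in Control hearts, atrial markers (3 of 4, mostly Nppa) to 339 ± 96.8 FPKM in AngII+QDG, 481 ± 186 in AngII and 300.4 ± 119 in Control hearts, and macrophage markers (5 of 5) to 73.8 ± 9.45 FPKM in AngII+QDG, 76.1 ± 20.8 in AngII and 85.7 ± 19.5 in Control hearts. In the cardiomyocyte list Ryr2, Tnni3 and Actc1 were higher in both AngII groups than in Control. Myh6, Tnnt2 and Myl2 were lower in both, and Myl3 and Pln were divided. Macrophage Adgre1 and Mrc1 were higher in both AngII groups and Csf1r and C1qa lower. Cd68 averaged 5.11 FPKM in AngII+QDG, 6.64 in AngII and 6.64 in Control hearts. Blood Hba-a2 averaged 89.6, 836 and 625 FPKM in the same order, and the other blood markers were lower in both AngII groups. The groups overlapped in each of these lists, none of the listed markers was at 0 in most libraries, and the part of other cell types in the results was not tested. In whole-heart RNA, fewer cells of a type and less RNA per cell cannot be told apart.

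The first comparison asked which genes differ in the heart after AngII. Of the 6 members, Ankrd1, Lmod2, Flnc, Xirp1 and Xirp2 rose in AngII hearts and Csrp3 was not called. Over all 12267 genes tested, 13.4% were called in either direction, 11.9% as higher and 1.48% as lower. The 5 called members showed no overlap between AngII and Control libraries, where 11.1% of all genes showed none in either direction and 10.1% were higher without overlap. The median log2 fold change was 1.00 over the 6 members and 0.20 over all genes. The members were chosen with earlier results of these data known, so these contrasts describe chosen genes and are not an independent test.

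Ankrd1, the member with the highest level in all 3 groups, stood at 513, 791, 803, 890.0 and 989.6 FPKM in AngII hearts, against 487, 362.4, 370.2, 304 and 222 FPKM in Control hearts. The lowest AngII heart lay just above the highest Control heart. The means were 797 ± 178 FPKM in AngII and 349 ± 97.2 FPKM in Control (SD, n = 5 each), a log2 fold change of 1.20 ± 0.22 (SE, limma adjusted p = 0.0112). Csrp3, the other member with a reported role in both Z-disc and nucleus, did not follow it. Csrp3 gene sums were 178, 161, 164, 213 and 216 FPKM in AngII hearts, against 193, 228, 238, 165 and 233 FPKM in Control hearts. The groups overlapped, and the log2 fold change was -0.18 ± 0.23 (95% interval -0.67 to 0.31, limma adjusted p = 0.621).

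**Figure D1:**
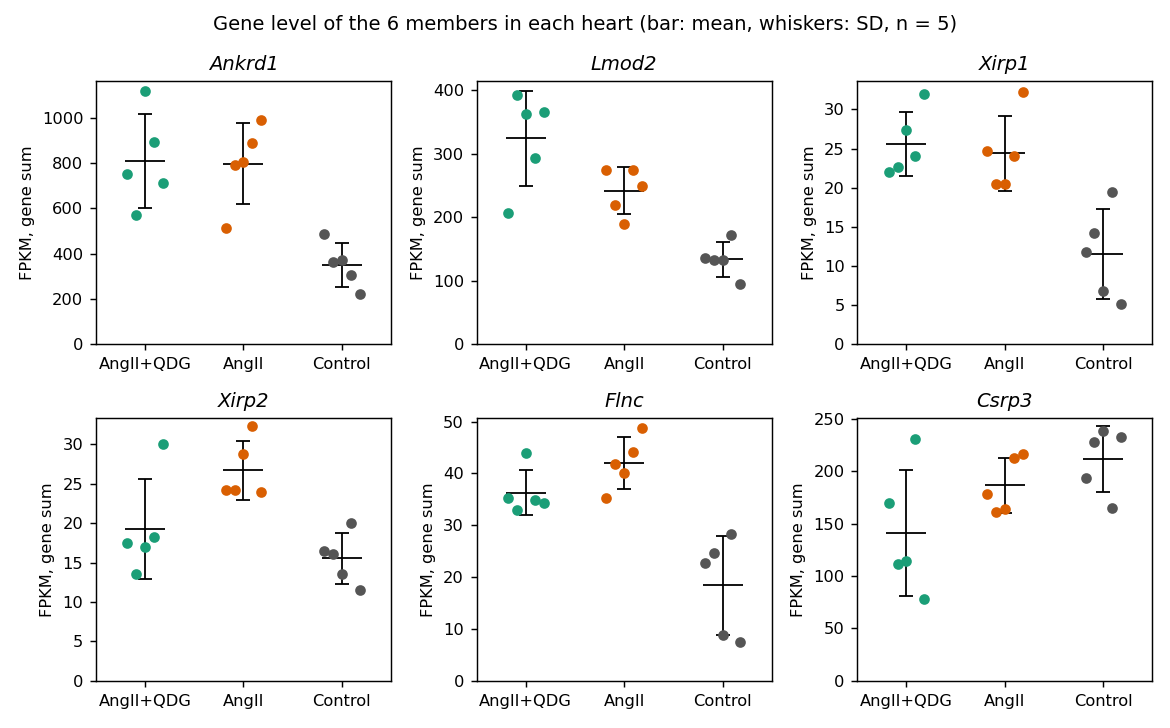
FPKM of each member gene in every heart (points) with the group mean (bar) and SD (whiskers), for AngII+QDG, AngII and Control, 5 libraries each. AngII and Control points are separate for Ankrd1, Lmod2, Flnc, Xirp1 and Xirp2, and overlap for Csrp3 (186 ± 26.5 FPKM in AngII, 211 ± 31.3 FPKM in Control).

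Lmod2, which adds actin at the pointed ends of thin filaments, had 274, 219, 189, 275 and 249.5 FPKM in AngII hearts, against 136, 133, 132, 172 and 95.2 FPKM in Control hearts. Every AngII heart lay above every Control heart, with Control 4 nearest. Its means were 242 ± 36.9 FPKM in AngII and 134 ± 27.1 FPKM in Control (SD, n = 5 each), a log2 fold change of 0.86 ± 0.18 (SE, limma adjusted p = 0.0166).

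Among the actin binders of the intercalated disc, Xirp1 had 24.7, 20.5, 20.5, 24.1 and 32.3 FPKM in AngII hearts, against 11.8, 14.2, 6.78, 19.4 and 5.16 FPKM in Control hearts. Control 3 and Control 5 were low and Control 4 came close to the AngII hearts. Xirp1 averaged 24.4 ± 4.82 FPKM in AngII and 11.5 ± 5.76 FPKM in Control (SD, n = 5 each), a log2 fold change of 1.14 ± 0.27 (SE, limma adjusted p = 0.0217). Xirp2, its longer relative, had 24.2, 24.1, 28.8, 32.3 and 23.9 FPKM in AngII hearts, against 16.5, 16.1, 13.6, 20.0 and 11.6 FPKM in Control hearts. The groups did not overlap. Xirp2 averaged 26.7 ± 3.77 FPKM in AngII and 15.5 ± 3.20 FPKM in Control, a log2 fold change of 0.75 ± 0.19 (SE, limma adjusted p = 0.0246).

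Flnc, summed over both transcripts, had 35.3, 41.9, 40.1, 44.0 and 48.7 FPKM in AngII hearts, against 22.7, 24.6, 8.82, 28.2 and 7.57 FPKM in Control hearts. The groups did not overlap, and Control 3 and Control 5 were again the lowest. The means were 42.0 ± 4.92 FPKM in AngII and 18.4 ± 9.53 FPKM in Control (SD, n = 5 each), a log2 fold change of 1.32 ± 0.29 (SE, limma adjusted p = 0.0189). Control 5 was the lowest Control heart for 5 of the 6 members, and Control 4 the highest for 4 of them.

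Relative to the median of all genes, the log2 fold changes were 1.00 for Ankrd1, 0.66 for Lmod2, 0.94 for Xirp1, 0.55 for Xirp2, 1.12 for Flnc and -0.38 for Csrp3. Of all genes called, 1457 were higher and 181 lower; after quantile normalization 406 were higher and 413 lower, after median scaling 361 were higher and 715 lower, and 4 members stayed called under each, with Xirp2 at 0.58 (adjusted p = 0.0649) and 0.50 (0.0835). Without Control 3 and Control 5, 1 member was called, Flnc at 0.71 (limma adjusted p = 0.0295), with Ankrd1 at 1.04 (0.0531), Lmod2 at 0.71 (0.0795), Xirp1 at 0.66 (0.0746) and Xirp2 at 0.58 (0.127). When the short-transcript balance entered as a covariate, 0 members and 0 genes were called (669 genes at an unadjusted p under 0.05), and the values were 0.99 ± 0.37 for Ankrd1, 0.72 ± 0.31 for Lmod2, 0.37 ± 0.28 for Xirp2, 0.23 ± 0.33 for Xirp1 and 0.21 ± 0.32 for Flnc (SE). The transcripts are 1818 nt long for Ankrd1, 1976 for Lmod2, 11979 for Xirp2, 5839 for Xirp1 and 8939 and 9038 for Flnc. Csrp3, with transcripts of 362 to 2433 nt, was at -0.02 ± 0.38. The balance of all 5 Control libraries lay above that of all AngII libraries, so balance and group can hardly be told apart, and its part in the result was not tested further. Xirp1 was not called without AngII 5 (1.04, adjusted p = 0.0537), nor Xirp2 without Control 3 (0.71), Control 5 (0.66), AngII 2 (0.79) or AngII 4 (0.68).

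**Figure D2:**
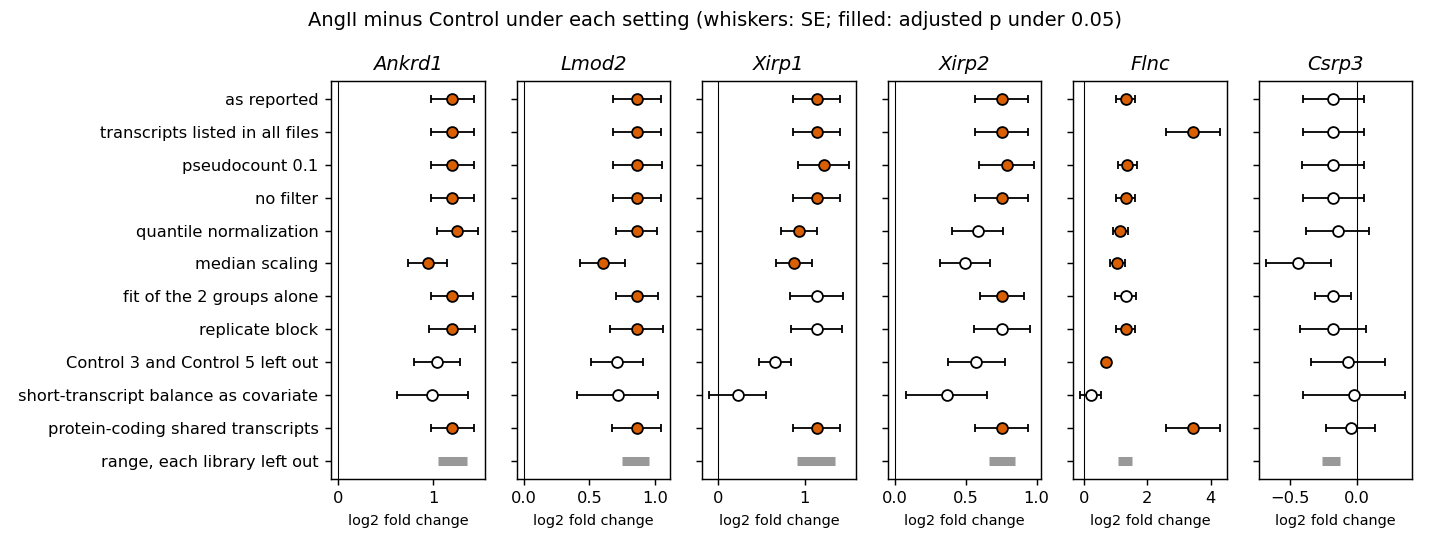
Log2 fold change of each member, AngII against Control, as reported and under the other settings (rows); whiskers are SE, grey bars the range with each library left out, and filled points mark an adjusted p under 0.05. Ankrd1 stays between 0.94 and 1.35 in the settings drawn, while Flnc runs to 3.44 over shared transcripts and to 0.21 with the short-transcript balance as covariate.

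The Flnc transcripts were taken 1 at a time. ENSMUST00000101617, without exon 31, had 35.3, 41.9, 40.1, 43.5 and 48.7 FPKM in AngII hearts, against 0, 24.6, 0.295, 27.6 and 0 FPKM in Control hearts. ENSMUST00000065090, with exon 31, had 0.0254, 0.010, 0.0071, 0.556 and 0.0127 FPKM in AngII hearts, against 22.7, 0.0183, 8.53, 0.674 and 7.57 FPKM in Control hearts. In AngII hearts nearly all Flnc was thus assigned to the transcript without the exon, while Control 1, 3 and 5 were assigned to the one with it and Control 2 and 4 to the one without. Its share of Flnc FPKM averaged 99.7% ± 0.55 in AngII and 40.2% ± 53.5 in Control (SD, n = 5 each; exact two-sided permutation p = 0.0159, adjusted p = 0.0635 over 4 tests). In the transcript fit, where 0.936% of transcripts were called, the log2 fold changes were 3.44 ± 1.01 without the exon (limma adjusted p = 0.122) and -2.19 ± 0.76 with it (adjusted p = 0.164). The exon makes up 1.1% of the longer transcript, so only a small share of the fragments can tell the pair apart. Flnc drew an estimated 4981 to 34083 fragments per library, and how those of the exon were assigned was not tested. A value of 0 is what the file lists rather than a count of exon reads. The AngII+QDG hearts, whose files list ENSMUST00000101617 alone, had 35.3, 32.9, 43.9, 34.9 and 34.3 FPKM.

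**Figure D3:**
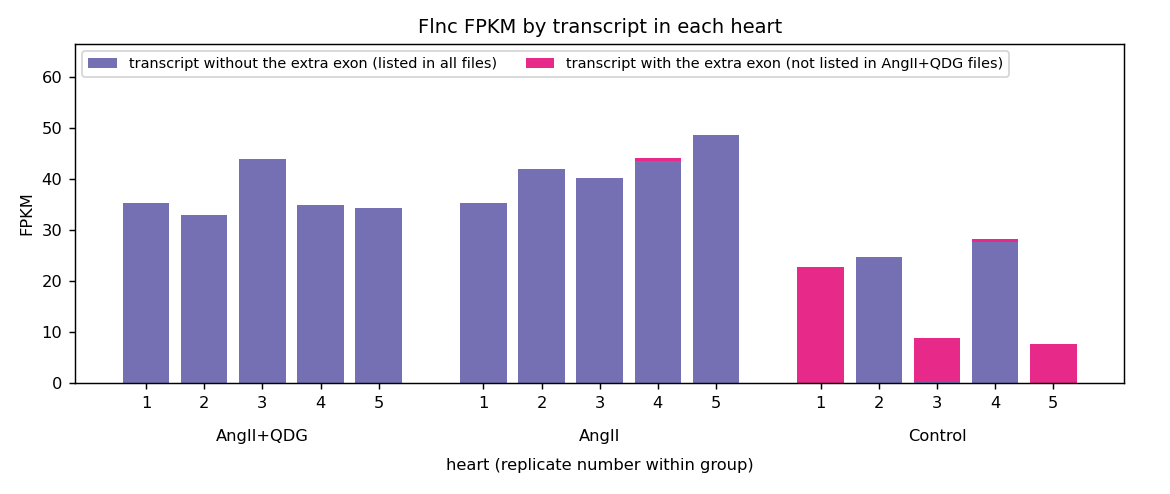
Stacked FPKM of the Flnc transcripts without and with the extra exon (exon 31) in each library of AngII+QDG, AngII and Control; the transcript with the exon is not listed in the AngII+QDG files. Control 1, 3 and 5 carry 22.7, 8.53 and 7.57 FPKM on the transcript with the exon, and every AngII library carries 0.556 FPKM or less on it.

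Csrp3 was listed as 4 transcripts, and its mean FPKM was highest on a non-coding one in each group, which held under 50% of the gene sum in 4 of 15 libraries (AngII+QDG 2, 3 and 5 and AngII 3). ENSMUST00000208146, annotated as a retained intron, contains the intron chr7:48833872-48835466 (GRCm38) between coding exons 3 and 4 of ENSMUST00000032658, which makes up 65.6% of its 2433 nt. It had 124, 50.5, 46.2, 154 and 23.7 FPKM in AngII+QDG hearts, 115, 112, 75.5, 166 and 161 FPKM in AngII hearts, and 133, 149.8, 171, 116 and 178 FPKM in Control hearts. AngII+QDG 2, 3 and 5 were the lowest of all 15 libraries, and AngII+QDG 1 and 4 lay within the range of both other groups. The sum of the 3 coding transcripts was 61.1 ± 11.6 FPKM in AngII+QDG, 60.5 ± 16.7 FPKM in AngII and 61.7 ± 11.3 FPKM in Control hearts (SD, n = 5 each), with overlapping libraries in all 3 groups. ENSMUST00000208146 also covers nearly all of exons 2 to 6 of ENSMUST00000032658. Fragments of these exons can belong to either, so the coding sum rests on how they were assigned.

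The retained intron transcript of Csrp3 held 51.2% ± 18 of its FPKM in AngII+QDG, 66.5% ± 12.5 in AngII and 70.7% ± 4.01 in Control hearts (SD, n = 5 each). The share differed by -15.3 points between AngII+QDG and AngII (exact two-sided permutation p = 0.151, adjusted p = 0.201), by -19.5 points between AngII+QDG and Control (p = 0.0794, adjusted p = 0.159) and by -4.15 points between AngII and Control (p = 0.619, adjusted p = 0.619). The smallest p 5 against 5 libraries allow is 0.00794. Its level gave a log2 fold change of -0.91 ± 0.41 in AngII+QDG against AngII (limma adjusted p = 1.00; 0 of 9 member transcripts and 0.0105% of all transcripts called) and of -1.19 ± 0.41 against Control (adjusted p = 0.0912; 4 of 9 member transcripts and 6.91% of all called). Over the coding transcripts alone, the AngII+QDG against AngII change of Csrp3 was 0.03 ± 0.18. Within that sum the coding transcripts did not move together. ENSMUST00000032658 (877 nt) averaged 18.8 ± 6.66 FPKM in AngII+QDG and 26.9 ± 10.6 FPKM in AngII, a log2 fold change of -0.48 ± 0.32. ENSMUST00000208050 (362 nt) averaged 40.2 ± 7.22 FPKM in AngII+QDG and 30.9 ± 8.30 FPKM in AngII (0.39 ± 0.26). The low ENSMUST00000167786 was at -0.17 ± 0.50, and none of them was called. Unspliced RNA is kept by rRNA depletion, and its part in these values was not tested.

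**Figure D4:**
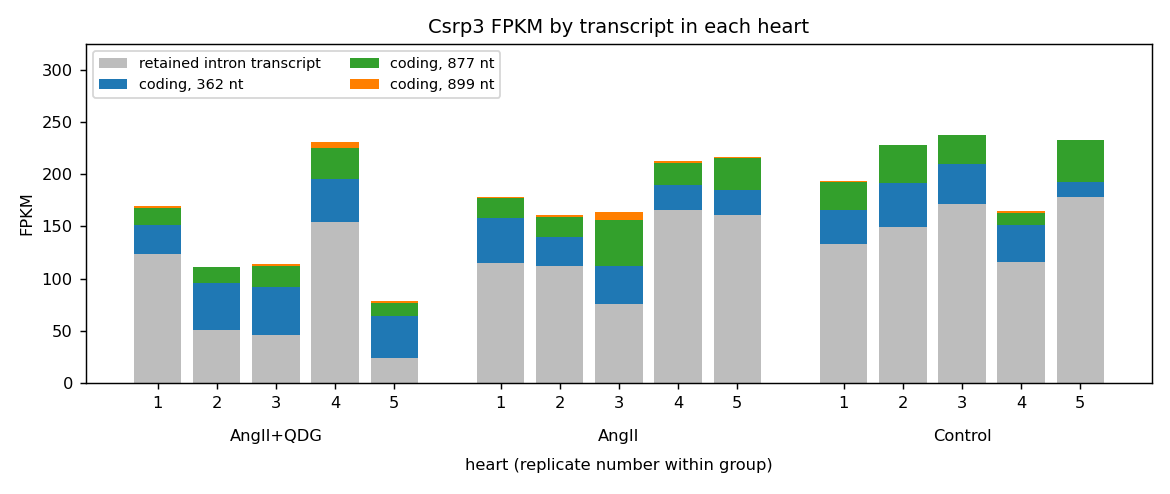
Stacked FPKM of the Csrp3 retained intron transcript and the 3 coding transcripts, named by length, in each library of AngII+QDG, AngII and Control. The retained intron values spread from 23.7 to 178 FPKM, and the coding sums average 61.1 FPKM in AngII+QDG, 60.5 in AngII and 61.7 in Control.

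Adding QDG to AngII was the second comparison, over transcripts listed in all 15 files. The AngII+QDG files list a different set of transcripts than the AngII files, so QDG and transcript list cannot be told apart. None of the members was called, 0 of 6, as were 0% of the 12238 genes tested by limma, with 472 genes at an unadjusted p under 0.05. Xirp2, with the smallest unadjusted p of the members (0.0195), had 17.5, 13.6, 16.9, 18.3 and 30.1 FPKM in AngII+QDG hearts, against 24.2, 24.1, 28.8, 32.3 and 23.9 FPKM in AngII hearts. In 4 of 5 AngII+QDG hearts it lay below every AngII heart, and AngII+QDG 5 lay among them. Xirp2 averaged 19.3 ± 6.30 FPKM in AngII+QDG and 26.7 ± 3.77 FPKM in AngII (SD, n = 5 each), a log2 difference of -0.49 ± 0.19 (95% interval -0.88 to -0.09, limma adjusted p = 0.999).

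Lmod2 leaned the other way, with 207, 392, 362.4, 294 and 366 FPKM in AngII+QDG hearts, against 274, 219, 189, 275 and 249.5 FPKM in AngII hearts. In 4 of 5 AngII+QDG hearts the value exceeded every AngII heart, and AngII+QDG 1 lay among them. The Lmod2 difference was 0.40 ± 0.18 on the log2 scale (95% interval 0.0085 to 0.79, limma adjusted p = 0.999). Csrp3 gene sums were 169.9, 111, 114, 230.4 and 78.4 FPKM in AngII+QDG hearts, against the AngII values above, a log2 difference of -0.49 ± 0.23 (95% interval -0.98 to -0.0034, limma adjusted p = 0.999). For Xirp2, Lmod2 and Csrp3 the interval of the single gene left out 0, and after adjustment over all genes none of them passed.

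Ankrd1 had 753, 569, 1118, 894 and 711 FPKM in AngII+QDG hearts, a log2 difference from AngII of 0.02 ± 0.22 (95% interval -0.46 to 0.50). Xirp1 had 22, 22.6, 27.3, 24.1 and 31.9 FPKM in AngII+QDG hearts, a log2 difference of 0.07 ± 0.27 (95% interval -0.50 to 0.64). Both ranges lay across the AngII hearts, and these intervals leave room for changes in either direction. Flnc averaged 36.3 ± 4.37 FPKM in AngII+QDG and 41.9 ± 4.88 FPKM in AngII (SD, n = 5 each), a log2 difference of -0.20 ± 0.85, where the error includes the spread of Control libraries that list this transcript at 0. Over all listed transcripts it was -0.21 ± 0.29. The limma adjusted p of each of these 3 genes was 0.999.

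**Figure D5:**
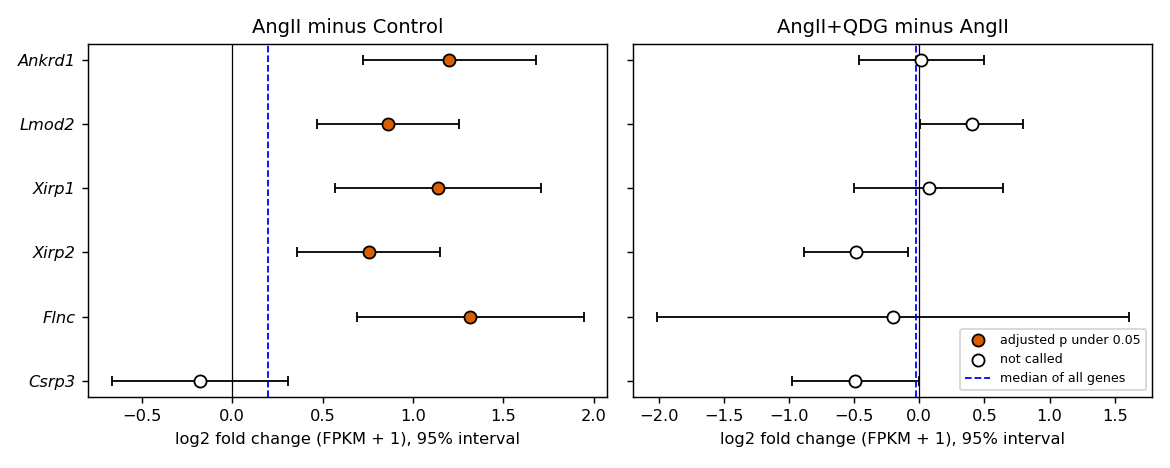
Log2 fold change of each member (points) with its 95% interval (whiskers) in AngII against Control (left panel) and AngII+QDG against AngII (right panel), with the median of all genes as a dashed line. The intervals of Ankrd1, Lmod2, Xirp1, Xirp2 and Flnc lie above 0 in AngII against Control, and every member has an adjusted p of 0.999 in AngII+QDG against AngII.

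Against Control, AngII+QDG hearts had higher Lmod2, Ankrd1, Xirp1 and Flnc, 4 of 6 members, where 18.6% of all genes were called, 15.5% as higher and 3.15% as lower. Of the genes called, 1893 were higher and 385 lower, against 882 higher and 903 lower after quantile normalization and 727 higher and 1557 lower after median scaling. This comparison shares its Control libraries with the first and its AngII+QDG libraries with the second. Group and transcript list cannot be told apart here either. Lmod2 averaged 324 ± 75.1 FPKM in AngII+QDG and 134 ± 27.1 FPKM in Control (SD, n = 5 each), a log2 fold change of 1.26 ± 0.18 (SE, limma adjusted p = 0.00195). Ankrd1 averaged 809 ± 208 FPKM in AngII+QDG and 349 ± 97.2 FPKM in Control, a log2 fold change of 1.22 ± 0.22 (adjusted p = 0.00505). Xirp1 averaged 25.6 ± 4.09 FPKM in AngII+QDG and 11.5 ± 5.76 FPKM in Control, a log2 fold change of 1.21 ± 0.27 (adjusted p = 0.00929). All AngII+QDG hearts lay above all Control hearts for these 3 genes and for Flnc, where 13.9% of all genes showed no overlap and 12.2% were higher without it.

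Flnc gave a log2 fold change of 3.24 ± 0.85 over transcripts listed in every file (limma adjusted p = 0.0188) and of 1.11 ± 0.29 over all listed transcripts (adjusted p = 0.0184), because the shared sum leaves out the transcript that carried Control 1, 3 and 5. Xirp2 was not called at 0.27 ± 0.19 (95% interval -0.13 to 0.66, limma adjusted p = 0.341), and 1 of 5 AngII+QDG hearts lay above the highest Control heart. Csrp3 missed the threshold at -0.67 ± 0.23 (adjusted p = 0.0545), and was called without Control 4 (-0.76, adjusted p = 0.0367), without AngII+QDG 4 (-0.87, adjusted p = 0.0147) and after median scaling (-0.94, adjusted p = 0.0194). Over its coding transcripts alone Csrp3 was -0.016 ± 0.18 (limma adjusted p = 0.963). Among these, ENSMUST00000032658 was at -0.53 ± 0.32, ENSMUST00000208050 at 0.36 ± 0.26 and ENSMUST00000167786 at 0.79 ± 0.50, none of them called. The Csrp3 gene sum was -0.49 without AngII+QDG 5 (limma adjusted p = 0.124) and -0.56 without Control 3 and Control 5 (adjusted p = 0.218). With the short-transcript balance as covariate 0 members were called; without Control 3 and Control 5, Flnc was 2.04 (adjusted p = 0.131).

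Read per length, the order of members was similar in the 3 groups, with Ankrd1 on top and the Xin genes at the bottom. In AngII+QDG hearts the order was Ankrd1, Lmod2, Csrp3, Flnc, Xirp1 and Xirp2, where the libraries of Lmod2 and Csrp3, and of Xirp1 and Xirp2, overlapped. In AngII hearts Xirp2 stood above Xirp1, and the same pairs overlapped. In Control hearts Csrp3 stood above Lmod2, with overlap between Ankrd1 and Csrp3, between Csrp3 and Lmod2, and among Flnc, Xirp2 and Xirp1. These places rest on the Csrp3 gene sum, retained intron included. Over coding transcripts Csrp3 lay below Lmod2 in every library of all 3 groups without overlap, and in Control hearts it had 49.0 to 78.2 FPKM, against 95.2 to 172 FPKM for Lmod2. That place depends on how fragments of exons shared with the retained intron transcript were assigned.

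The genes nearest in pattern over the 15 libraries were found by the mean absolute difference of centred log2(FPKM + 1) among 9337 genes, over transcripts listed in all 15 files. They were Haus8 (0.227) and Cavin4 (0.253) for Ankrd1, Irf2bpl (0.180) and Cnksr3 (0.192) for Xirp1, and Elf1 (0.186) and Cstf3 (0.194) for Xirp2. For Lmod2 they were Trib1 (0.184) and Wee1 (0.192), and for Csrp3 Gngt2 (0.184) and Myl9 (0.206). For Flnc they were Btnl9 (0.713) and Palld (0.790), but this Flnc sum leaves out the transcript with exon 31 and is at or near 0 in Control 1, 3 and 5. Summed over all listed transcripts, a setting added after seeing the data (9436 genes), the genes nearest to Flnc were Notch4 (0.157) and Irf2bpl (0.181). Among the members, Xirp1 and Flnc were then nearest to each other (0.188), and Flnc ranked 2 from Xirp1. Over shared transcripts Xirp1 and Flnc differed by 1.15, and Xirp1 and Lmod2 were nearest (0.274, the same in both settings). With all listed transcripts Xirp2 had Elf1 (0.186) and Brms1l (0.201) nearest, and Csrp3 had Gngt2 (0.184) and Car7 (0.198).

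Around the members, genes that work with them were followed in 6 lists, with the all-gene median of 0.20 in AngII against Control beside each list's own. Of all genes tested, 11.9% were called higher in this comparison, and the counts of the lists are to be read against that share. The lists, too, were chosen with earlier results of these data known, so the counts are descriptive. Thin filament genes had 5 of 10 higher and 0 lower (median 0.41). Capza1, a capping protein subunit, averaged 8.71 ± 1.97 FPKM in AngII and 4.72 ± 1.06 FPKM in Control (SD, n = 5 each), a log2 fold change of 0.76 ± 0.18 (limma adjusted p = 0.0217), and the actin-severing cofilin Cfl2 (0.51 ± 0.12, adjusted p = 0.0202) and Capza2 (0.45 ± 0.12, adjusted p = 0.0288) rose with it. Integrin and costamere genes had 3 of 12 higher and 0 lower (median 0.28). Vcl (vinculin), which ties actin to the costamere, averaged 12.7 ± 4.52 FPKM in AngII and 3.73 ± 1.3 FPKM in Control, a log2 fold change of 1.51 ± 0.25 (adjusted p = 0.00747), followed by Dag1 (0.74 ± 0.20, adjusted p = 0.0303) and Parva (0.41 ± 0.12, adjusted p = 0.0440). Z-disc and titin spring partners had 0 of 16 called (median 0.46), with Mypn at 0.49 ± 0.16 (adjusted p = 0.0575) and Myot at 0.75 ± 0.25 (adjusted p = 0.0583).

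Paralogs of the members had 3 of 7 higher (median 0.20). Ankrd23, a relative of Ankrd1 that also binds titin, averaged 375 ± 73.9 FPKM in AngII and 172 ± 37.9 FPKM in Control (SD, n = 5 each), a log2 fold change of 1.12 ± 0.20 (limma adjusted p = 0.00965), and the filamin Flna (0.64 ± 0.14, adjusted p = 0.0172) and the leiomodin Lmod3 (0.50 ± 0.14, adjusted p = 0.0332) rose as well. Filamin chaperones had 1 of 7 higher (median 0.30), near the 11.9% of all genes, the constitutive chaperone Hspa8 at 0.54 ± 0.11 (adjusted p = 0.0163). Among SRF, MRTF, YAP and TEAD genes 2 of 9 were higher (median 0.40), Ccn2, a matricellular YAP target, at 2.10 ± 0.35 (adjusted p = 0.00781) and Wwtr1 (TAZ) at 0.56 ± 0.12 (adjusted p = 0.0187). In each of the 6 lists 0 genes were called in AngII+QDG against AngII, with medians from -0.17 to 0.01. Ankrd23, Flna, Hspa8, Vcl and Ccn2 stayed called whichever single library was left out, but none of them with the short-transcript balance as covariate. Cfl2 and Wwtr1 were not called without AngII 2, Capza1 without AngII 5, Capza2 without Control 2 or AngII 2, 4 or 5, Lmod3 without Control 3 or AngII 1, 2, 4 or 5, and Dag1 without Control 3 or 5 or AngII 1, 2, 4 or 5. Parva stayed called in 1 of 15 such fits, Mypn was called in 2 (without Control 1 or 4) and Myot in 3 (without Control 3, AngII 3 or AngII+QDG 1). With the covariate 0 of 12267 genes were called, and 97 without Control 3 and Control 5. Over all settings other than a single library left out, the named list genes kept their status in 92 checks. They lost the call in 46 and changed sign in 2.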

How the data were processed

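RNA of 15 hearts was made into libraries after rRNA depletion, per the labels' protocols. Each library has 1 table of transcripts, deposited by the authors, whose values are taken as FPKM: the headers name no unit, and it was worked out from the values. The submitters' processing notes name GRCm38 and limma; aligner, quantifier and use of strand were not given in the sources used here, so reads of overlapping antisense genes could not be told apart. Control and AngII files list 31685 transcripts, AngII+QDG files 31734, and 29996 are in both. The list is thus tied to the group in both AngII+QDG comparisons. Limiting sums to shared transcripts does not undo how reads were divided among those listed, and this part was not tested. Named transcripts (GENCODE M21) were summed per gene; 8634 assembled transcripts have no gene name and could hold further reads of these genes. AngII against Control used all listed transcripts, the other comparisons those in all 15 files. A gene was tested if 5 or more libraries reached 0.5 FPKM, on log2(FPKM + 1), a scale that understates the change of low genes, with limma 3.58.1 in R 4.3.3 (trend, robust; 1 fit of all 15 libraries) and called at a Benjamini-Hochberg adjusted p of 0.05. Between 99.0 and 99.7% of low values were whole steps (within 0.1). The fit was tested on simulated data with independent noise per gene and library. These held no library-wide shift such as the short-transcript balance, so they cannot show how the fit handles one. Named genes were the members, up to 3 called genes per list by smallest p (2 where none was called) and the 2 nearest genes per member. The members and lists were chosen with earlier results of these data known. Alternatives covered the pseudocount, filter, scaling, samples in the fit, replicate block, Control 3 and Control 5, the short-transcript covariate, single transcripts and each library left out; sums over protein-coding shared transcripts, and pattern likeness over all listed transcripts, were added after seeing the data. Python 3.11.15 and scipy 1.17.1 did the rest.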

Additional observations from a re-analysis of the deposited data

Results flagged for a closer look

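In groups of 5, a library was singled out where its gap to the nearest other exceeded the share of the range that Dixon's test allows, which chance alone gives in about 1 of 20 groups; 35 groups were looked at and 5 were singled out. Xirp2 in AngII+QDG 5 was 30.1 FPKM, against 13.6 to 18.3 FPKM in the other AngII+QDG hearts. Flnc in AngII+QDG 3 was 43.9 FPKM, for the gene and for its transcript ENSMUST00000101617 alike, against 32.9 to 35.3 FPKM in the other AngII+QDG hearts. The Flnc transcript with exon 31 was 0.556 FPKM in AngII 4, against 0.0071 to 0.0254 FPKM in the other AngII hearts. The coding Csrp3 transcript ENSMUST00000167786 was 7.79 FPKM in AngII 3, against 0.256 to 2.14 FPKM in the other AngII hearts.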

How the results depend on the processing

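In AngII against Control 5 members were called; 3 were called in a fit of these groups alone, 3 with a replicate block, 1 without Control 3 and Control 5, 0 with the short-transcript covariate and 2 of 10 as single transcripts, and 4 to 5 with each library left out. In AngII+QDG against Control 4 were called, 0 with the covariate, and 4 to 5 with each library left out. In AngII+QDG against AngII 0 were called in every fit listed in the processing summary (0 to 0 with each library left out). Over all genes, 1638 calls in AngII against Control became 317 in the fit of 2 groups, 516 with the block, 819 after quantile normalization, 1076 after median scaling, 97 without Control 3 and Control 5 and 0 with the covariate, and ran between 316 (without AngII 2) and 2484 (without Control 4) with each library left out. For AngII+QDG against Control 2278 calls became 1277 in the fit of 2 groups, 1080 without Control 3 and Control 5 and 2 with the covariate, and ran between 1297 (without AngII+QDG 1) and 2919 (without Control 4). In AngII against Control, limma did not call Xirp1 (adjusted p = 0.0519) and Xirp2 (0.0536) under the block, nor Xirp1 (0.0604) and Flnc (0.0575) in the fit of 2 groups; in AngII+QDG against Control the fit of 2 groups did not call Flnc (0.0602). The sample names do not say what the replicate numbers stand for. Of 15 pairs of same-numbered libraries, 0 deviated together beyond a correlation of 0.1, and 1 library correlated best with its own number. Whether same-numbered libraries shared a batch was not tested. Changes of sign, all of uncalled values under the alternative, were as follows. With the covariate Ankrd1 was -0.0043 and Xirp1 -0.019 in AngII+QDG against AngII, Xirp2 was -0.16 in AngII+QDG against Control, and Mypn was -0.15 and Dag1 -0.12 in AngII against Control. Median scaling gave -0.0010 for Xirp2 in AngII+QDG against Control, and protein-coding transcripts gave 0.032 for Csrp3 in AngII+QDG against AngII. With each library left out, AngII+QDG against AngII ran from -0.13 to 0.13 for Ankrd1 and from -0.0070 to 0.18 for Xirp1. For these results the cause was not tested. Depth limits the low Flnc and Csrp3 transcripts most, where 1 library can hold fewer than 20 fragments.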

Other observations

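Several list genes outside the naming rule were called in AngII+QDG against Control, and they are given here after their values were seen. Of all genes, 15.5% were called higher and 3.15% lower in this comparison. Higher were 2 of 16 Z-disc, 4 of 10 thin filament and 4 of 11 integrin and costamere genes. So were 1 of 7 filamin chaperones, 3 of 7 paralogs and 4 of 9 SRF, MRTF, YAP and TEAD genes, with 1 of these 9 lower. Values are sums over shared transcripts, and group and transcript list cannot be told apart. With the short-transcript covariate 2 of all genes were called. Yap1, a co-activator of TEAD factors, averaged 4.66 ± 2.94 FPKM in AngII+QDG, 9.83 ± 3.42 FPKM in AngII and 10.4 ± 3.32 FPKM in Control hearts (SD, n = 5 each). It was lower against Control by limma (log2 fold change -1.08 ± 0.30, adjusted p = 0.0238), the groups overlapped, and against AngII it was -0.99 ± 0.30 (adjusted p = 0.954). Higher in AngII+QDG than in Control were Nexn, an actin-binding Z-disc protein (1.33 ± 0.40, adjusted p = 0.0342), Ccn1, a matricellular protein (1.00 ± 0.29, adjusted p = 0.0279), Dmd (dystrophin; 0.87 ± 0.24, adjusted p = 0.0235), Mrtfb, an SRF co-activator (0.65 ± 0.15, adjusted p = 0.010), and Cap2, a cyclase-associated actin regulator (0.52 ± 0.17, adjusted p = 0.0428).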
